A study of Mus musculus with 4 samples.

Results

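Immune cells of the gut's connective tissue layer (lamina propria lymphocytes) were compared between Stat4-/- and wild-type C57BL6 mice that had both received dextran sulfate sodium (DSS), which damages the colon epithelium and gives colitis. Cells were taken on day 10. The comparison has 2 of the series' 4 arrays, 1 for each genotype, and both were read in the same scan. The other 2 arrays come from mice of the same genotypes that received DSS and leukemia inhibitory factor (LIF), a cytokine of the interleukin-6 family, and they appear here only as values beside the DSS arrays. The labels give 5 mice per group, and the pooling of their RNA was not given in the sources used here. All groups carry the DSS treatment, and mice on plain water, mentioned in the labels' protocols, are not analysed here. The making of the Stat4 allele was not given in the sources used here either.

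STAT4 is a transcription factor that carries the interleukin-12 signal from the receptor to the nucleus of T cells and natural killer (NK) cells, where it drives the gene of interferon gamma. Interferon gamma in turn acts through IRF1 and other factors on the genes of guanosine triphosphatases (GTPases) that guard cells against intracellular pathogens, of major histocompatibility complex (MHC) class I molecules and of the proteasome subunits that cut peptides for them. In DSS colitis the lamina propria also fills with neutrophils and monocytes, and repair of the wall involves matrix proteins and proteases.

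A gene entered the comparison when at least 1 of its probes was well above background on both arrays, which held for 10556 of the 20659 genes with a named probe. Levels are log2 processed signals relative to the 75th percentile of the array, and differences are labelled knockout minus wild type, taken from the brightest measured probe of a gene. With 1 array per genotype there is no replicate and no test, so every fold is a distance between these 2 arrays. Replicate spots of a probe varied with a median SD of 0.105 on the log2 difference over 194 probes, an error that holds within arrays only. Stat4, the targeted gene, had a level of -0.49 in wild type and 0.31 on the array labelled knockout, a difference of 0.80 in the direction opposite to a loss of the transcript. The position of its single probe relative to the deleted part was not given in the sources used here. The array is therefore called the labelled knockout and each direction rests on the labels.

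At a threshold of 2-fold, with all measured probes of a gene pointing the same way, 1340 genes (12.7%) were higher in the labelled knockout and 701 (6.64%) were lower, 2041 (19.3%) in all. The median difference of all genes was 0.07. With another background correction, normexp with an offset of 50, which pulls dim signals together, the balance turned to 327 higher and 762 lower. The surplus of higher genes lay among dim ones. Of the dimmest 20% of genes 22.9% were higher and 2.65% lower, and of the brightest 20% the shares were 10.9% and 7.82%. In the brighter 50% of genes 517 (9.8%) were higher and 386 (7.31%) lower. The dimmest value well above background was a log2 level of -3.79 on the wild-type array and -2.13 on the labelled knockout array, so a dim gene could be measured on both arrays only when it was not much lower in the labelled knockout. Genes above background on 1 array only numbered 152 for the labelled knockout and 3485 for wild type. All 152 (100%) had a difference of at least 2-fold as a lower bound, which the gap between the floors all but fixes. Of the 3485, a lower bound could be set for 1065, and it passed 2-fold for 207 of them (19.4%), while the other 2420 had a wild-type level no higher than the limit on the labelled knockout array and gave no fold.

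**Figure D1:**
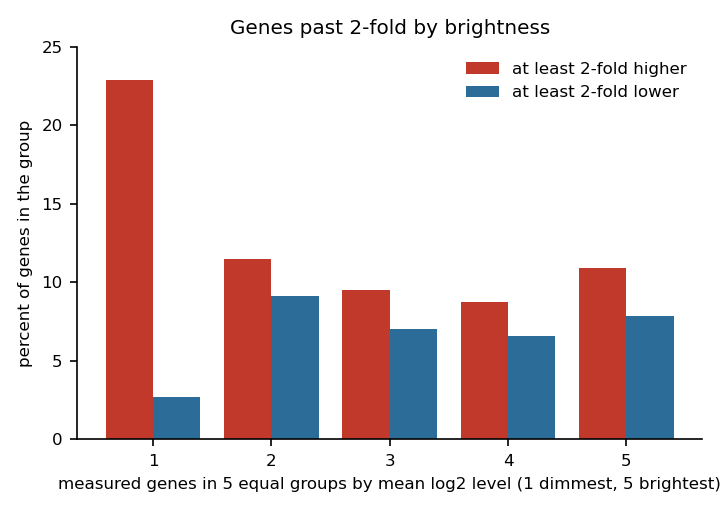
Percent of measured genes at least 2-fold higher (red) or at least 2-fold lower (blue) in the labelled knockout under DSS, in 5 equal groups of genes by mean log2 level of the 2 arrays, 1 being the dimmest. Higher genes make up 22.9% of the dimmest group and 10.9% of the brightest.

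The immunity-related GTPases, interferon-inducible proteins that attack the vacuoles of intracellular microbes, had the lowest median among the 88 gene lists of families and processes. Of 7 measured members 6 were lower by 2-fold or more and 0 were higher (median difference -1.75). Iigp1 had a level of 1.75 in wild type and -0.74 in the labelled knockout, 5.60-fold lower. Tgtp2 went from 2.17 to -0.28, 5.45-fold lower. Both are effectors. The regulatory members keep the effectors off the cell's own membranes, and they were lower too. Igtp, also called Irgm3, had levels of 1.04 and -0.70, 3.36-fold lower. Irgm2 was at 0.68 and -0.80 (2.79-fold lower) and Irgm1 at -0.08 and -1.26 (2.28-fold lower). Gm4951 stood furthest apart, at 3.35 in wild type and -1.99 in the labelled knockout, a 40.6-fold difference, and it is named here after its values were seen because its locus-type name lies outside the naming rule. The remaining member, 9930111J21Rik1, had a difference of 0.44. Each of these genes has 1 measured probe, and the near-identical Tgtp1 and Tgtp2 transcripts may share signal.

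Promoters of 4 of these 7 genes carry letters on which interferon-driven factors are known to act, and they are shown because most members were low together. Iigp1 and Gm4951 were not searched. RefSeq promoters (GRCm38.p6) were searched in the 250 bases before each gene's start for GAAA, any 2 bases and GAAA again, the core of the interferon-stimulated response element, on both strands, and for TTCNNNGAA, the core of the gamma-activated site, which reads the same on both strands. The first was present in 4 of the 5 GTPase genes with a promoter entry, in 3.45% of the 8443 measured genes with an entry and in 3.46% of all 27025 genes in the table. The second was present in 3 of the 5, in 7.45% of the measured genes and in 8.13% of all genes. The 150 bases before the start of each of the 4 genes are given 5′ to 3′ on the gene's strand, with matches in capitals.
Igtp, chr11:58199406-58199555, plus strand: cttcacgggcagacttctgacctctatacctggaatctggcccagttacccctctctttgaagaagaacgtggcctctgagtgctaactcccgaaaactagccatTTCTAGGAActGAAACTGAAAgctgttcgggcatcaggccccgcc
Irgm2, chr11:58214827-58214976, plus strand: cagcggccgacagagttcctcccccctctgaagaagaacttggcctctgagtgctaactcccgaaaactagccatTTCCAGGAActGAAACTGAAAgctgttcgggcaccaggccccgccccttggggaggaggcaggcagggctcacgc
Tgtp2, chr11:49064213-49064362, minus strand: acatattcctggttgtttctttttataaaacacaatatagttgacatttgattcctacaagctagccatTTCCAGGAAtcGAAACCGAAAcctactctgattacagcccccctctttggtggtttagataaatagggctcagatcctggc
Irgm1, chr11:48871421-48871570, minus strand: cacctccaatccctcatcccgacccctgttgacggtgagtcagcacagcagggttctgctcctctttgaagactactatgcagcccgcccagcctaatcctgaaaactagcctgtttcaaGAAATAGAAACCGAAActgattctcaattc
In Igtp, Irgm2 and Tgtp2 the gamma-activated core came first and the response element core began 11 bases after it, at positions -34, -64 and -70 counted from the gene's start (the base just before it being -1), without overlap. Irgm1 held a pair of overlapping response element cores, at -30 and -24, and no gamma-activated core. No match was found in 9930111J21Rik1. A match is a description of the letters and not a measured binding site. The Igtp and Irgm2 promoters share a long near-identical stretch around both cores, so they are not separate cases. The family is known as interferon-inducible, so the counts of cores are no test of the low values on these arrays.

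MHC class I genes, whose products display peptides to cytotoxic T cells, were lower as a group. Of 12 measured members 7 were lower by 2-fold or more and 1 was higher (median -1.21), and 11 of the differences were negative. H2-D1, a classical heavy chain, had levels of 2.54 and 0.97, 2.96-fold lower. H2-K1, the other classical chain of this strain, had 6.42 and 5.60, a 1.77-fold difference, with both probes of the same sign. The shared light chain B2m was at 8.05 and 6.77, 2.43-fold lower. H2-T23, which encodes the non-classical Qa-1 molecule read by NK cell receptors, was at 3.78 and 2.27, 2.86-fold lower. Within the H2-Q group 4 of 5 measured genes were at least 2-fold lower, among them H2-Q6 (2.90-fold) and H2-Q2 (2.65-fold, with both probes of the same sign). H2-Q4 was level, with levels of 5.63 and 5.61, and H2-M9 went the other way, from -3.18 to -0.69, as a dim probe. MHC class I sequences resemble each other, so signal may be shared between these probes.

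Genes of peptide supply to class I differed less. Of 9 measured genes of the immunoproteasome and peptide loading list 2 were at least 2-fold lower and 0 higher, and all 9 differences were negative by the brightest probe (median -0.83). One of those 2 is B2m, which both lists hold. The catalytic immunoproteasome subunit Psmb8 had levels of -0.52 and -1.66, 2.19-fold lower, and its partners Psmb9 (0.17 and -0.81) and Psmb10 (3.39 and 2.47) were 1.98-fold and 1.90-fold lower. Psme2, a subunit of the proteasome activator, was 1.77-fold lower, with both probes of the same sign. Nlrc5, the transactivator of class I genes, was at 1.04 and 0.41 by its brightest probe, while its second probe differed by 0.18. The peptide transporter gene Tap2 was at 0.78 and 0.23.

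Guanylate-binding proteins, a related family of interferon-inducible GTPases, split. Gbp4 went from 0.40 to -1.64 (4.12-fold lower) and Gbp2b, known as the mouse Gbp1, from 0.27 to -1.63 (3.74-fold lower). Gbp5 and Gbp3 were above background in wild type only, at least 3.52-fold and at least 2.18-fold lower. Gbp6 was very bright on both arrays and 2.94-fold higher in the labelled knockout, with levels of 8.97 and 10.53, while Gbp10 differed by 0.22. The direction of the family's median (-0.84 over 4 genes) therefore depends on the genes kept. It was 0.22 over the 3 genes above background on all 4 arrays.

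Over the GTPase, guanylate-binding, class I and peptide loading lists together, 22 of 31 measured genes had a promoter entry, and 7 of these 22 held the response element core. All 7 belong to the 12 genes with an entry that were at least 2-fold lower. Besides the 4 GTPase promoters above, the matches were in these 3, shown because they carry the same core further from the start.
Gbp2b, chr3:142594697-142594846, plus strand: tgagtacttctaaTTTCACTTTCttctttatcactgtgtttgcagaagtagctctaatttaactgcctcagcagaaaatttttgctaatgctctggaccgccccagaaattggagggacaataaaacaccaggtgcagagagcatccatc
B2m, chr2:122147537-122147686, plus strand: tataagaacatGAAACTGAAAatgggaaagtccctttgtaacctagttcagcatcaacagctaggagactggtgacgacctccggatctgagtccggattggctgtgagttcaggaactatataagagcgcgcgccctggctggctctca
H2-T23, chr17:36032702-36032851, minus strand: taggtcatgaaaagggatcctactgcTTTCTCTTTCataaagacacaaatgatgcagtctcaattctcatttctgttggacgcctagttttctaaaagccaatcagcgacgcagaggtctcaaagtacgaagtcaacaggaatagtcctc
The matches lay at -137 in Gbp2b, -139 in B2m and -124 in H2-T23, in reverse orientation in Gbp2b and H2-T23. H2-D1, H2-Q2, H2-Q6 and H2-Q7, at least 2-fold lower as well, held neither core in this window. Psmb8, lower too, held the gamma-activated core only, at -97. That core was present in 5 of the 22 genes, 4 of them among the 12 lower ones. The lists were chosen as interferon and antigen presentation genes, and a link between the cores and the low values was not tested.

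**Figure D2:**
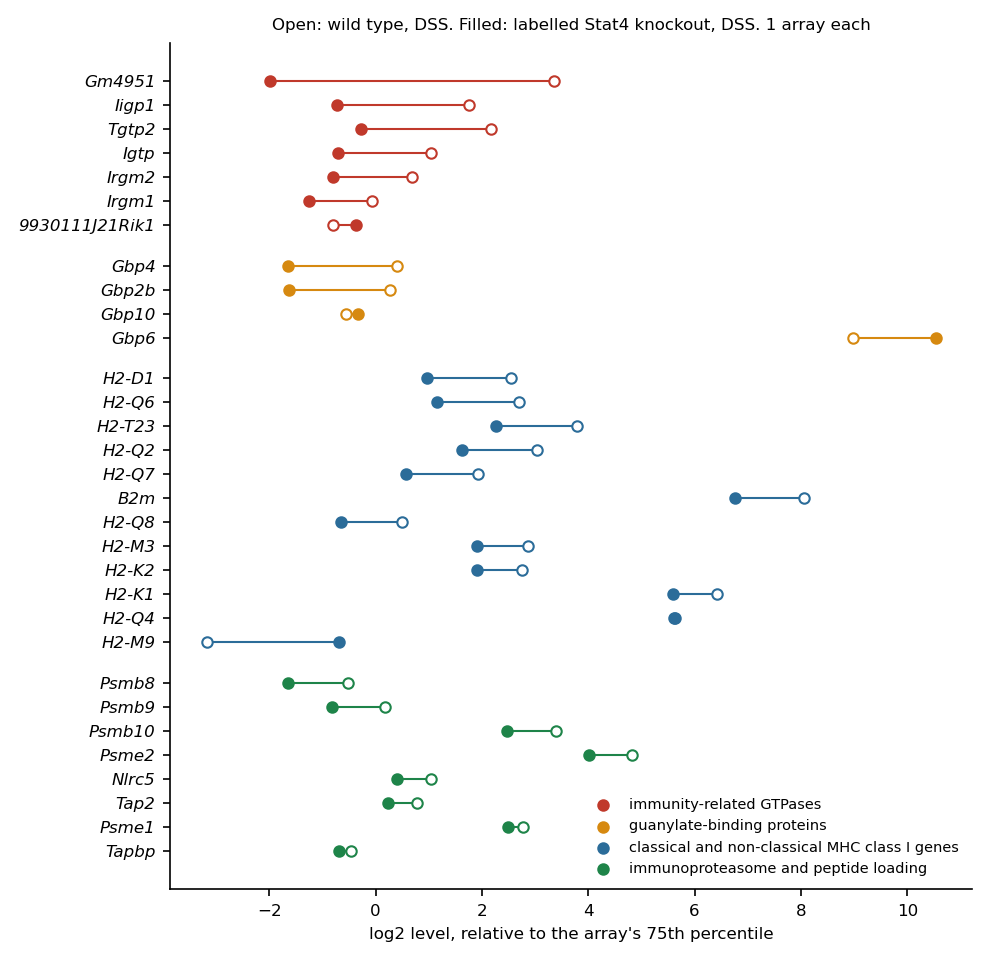
Log2 level of each measured immunity-related GTPase, guanylate-binding protein, MHC class I and peptide loading gene in wild type (open) and in the labelled knockout (filled) under DSS, 1 array each and relative to the array's 75th percentile. Filled points lie to the left of open ones for 6 of 7 GTPases and 11 of 12 class I genes (B2m, in 2 lists, is drawn once), while Gbp6 and H2-M9 lie the other way.

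Under DSS the measured genes that answer type I interferon had a median near 0, with members on both sides. The OAS, IFIT, Mx and viral-sensor list, whose products detect or block viral RNA, had 3 of 17 measured genes at least 2-fold higher, 1 at least 2-fold lower and a median of 0.05. These shares, 17.6% and 5.88%, are near the 12.7% and 6.64% of all genes. Usp18, a brake on type I interferon receptors, was the lower one, at -0.40 and -2.02. Isg15 had levels of 1.35 and 0.88, Rsad2 of 1.64 and 2.55, and Ifi44 of 0.39 and 1.73. Oas1e and Oas1f, the other 2 higher genes, were dim on the wild-type array, at -3.19 and -3.42. Oas1a, which makes the activator of an RNA-degrading enzyme, was above background in the labelled knockout only, at least 24.0-fold higher. No IFIT or Mx gene entered the median of 0.05, which therefore says nothing of these 2 families. Ifit1, Ifit2, Ifit3 and Ifit3b were below background on both arrays, and no Mx gene was among the list's members on the array. Of 9 measured p200 interferon-inducible genes, a family of DNA sensors, 1 was higher (11.1%) and 0 lower. No test of the difference between these lists and the GTPases can be made with 1 array per genotype.

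Upstream of these genes, Ifng itself had a level of 0.36 in wild type and was not well above background in the labelled knockout, at least 5.63-fold lower. Irf1, the factor through which interferon gamma reaches class I promoters, was at 4.29 and 3.25, 2.05-fold lower. Most receptor and kinase genes differed little. Ifngr1 had 4.54 and 4.62, Ifngr2 had -0.42 and -0.51, Jak1 had 3.15 and 3.46 and Jak2 had 1.96 and 2.03. Ifnar1, of the type I interferon receptor, had 3.99 and 5.85 by its brightest probe, and its second probe went the other way. Socs3, a feedback inhibitor of gp130 cytokines, was at 2.08 and 3.43, a difference of 1.35. It was the 1 gene of 14 measured interferon signalling genes counted as at least 2-fold higher, and Irf1 the 1 counted as lower, each by a single measured probe.

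The interleukin-12 and interleukin-18 pathway that STAT4 serves had 3 of 14 measured genes at least 2-fold lower and 1 higher (median 0.03). These shares, 21.4% and 7.14%, compare with 6.64% and 12.7% over all genes. Irf1, counted already among the interferon signalling genes, is among the 3 lower ones. The measured receptor chains were not lower by their brightest probe, and Il23r and Il18rap gave no measured difference. Il12rb1 had levels of 7.79 and 8.11 with probes that disagreed in sign, Il12rb2 had -1.90 and -1.14, and Il18r1 was 4.02-fold higher, at -2.15 and -0.14. Tbx21, which encodes the T helper 1 factor T-bet, was at 2.06 and 0.80, and the related factor gene Eomes was above background in wild type only, at least 3.58-fold lower. Il12a, a ligand subunit, was above background in the labelled knockout only, at least 3.53-fold higher. Il18bp, a decoy for interleukin-18 known as an interferon gamma target, was at -0.90 and -2.04, 2.20-fold lower.

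Marker genes of several cell types differed between the same 2 arrays. Of 6 measured NK cell markers 3 were at least 2-fold lower and 0 higher, and their summed signal, scaled to each array's 75th percentile, was 38.0 in wild type and 13.7 in the labelled knockout, with Klrk1 below background on both. Of 11 measured T cell markers 0 were past 2-fold either way, with summed signals of 27.3 and 21.1 and Cd247 below background. Of 8 macrophage and monocyte markers 1 was higher and 0 lower, with sums of 26.1 and 25.1 and C1qa below background. The part of these markers in the results on interferon-inducible genes was not tested. In RNA from a mixed cell preparation, fewer cells of a type and less RNA per cell cannot be told apart.

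CC and CXC chemokines each held members on both sides, and the difference between the classes was not tested. Among CC chemokines 4 of 14 measured were at least 2-fold lower and 2 higher (median -0.56). The monocyte attractants Ccl12 (1.01 and -1.46), Ccl8 (1.45 and -0.39) and Ccl2 (2.03 and 0.93) were 5.54-fold, 3.59-fold and 2.15-fold lower. Ccl4, bright at 10.21 and 11.62, was 2.66-fold higher, and the dim eosinophil attractant Ccl11 (-2.90 and -1.47) was higher too. Among CXC chemokines 3 of 8 were higher by 2-fold or more and 0 lower (median 0.75), with 3 of the 8 in the dimmest 20% of genes. The higher count fell to 1 with a loess on brightness and to 0 with the normexp offset. The neutrophil attractants Cxcl1 (1.02 and 2.10) and Cxcl3 (-3.25 and -1.67) were 2.10-fold and 2.98-fold higher. Cxcl10, induced by interferon gamma, was above background in wild type only, at least 2.44-fold lower. The receptor gene Cxcr6, carried by tissue T cells and NK cells, had levels of 2.93 and 1.05 and was 3.67-fold lower by its brightest probe, with a log2 difference of -1.95 by the second.

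The stefin A cluster, cytosolic inhibitors of cysteine proteases abundant in mouse myeloid cells, was higher throughout. All 6 measured members were at least 2-fold higher (median 4.19, range 2.15 to 5.82). Stfa3 went from 0.42 to 6.24, a 56.6-fold difference. Csta2 went from 4.77 to 8.43 (12.6-fold) and Csta3 from 0.16 to 2.31. Members are near-identical copies, so their probes may report shared signal rather than 6 separate genes.

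Formyl peptide receptors, which guide phagocytes to bacterial peptides, were also higher in all 4 measured members (median 1.83). Fpr1 had levels of 1.02 and 2.56 (2.90-fold), Fpr2 of 5.71 and 6.96 (2.37-fold), and Fpr-rs6 of 0.49 and 2.92 (5.42-fold). Of 7 measured acute phase genes 4 were higher and 0 lower (median 1.47). Haptoglobin (Hp) was at 1.12 and 3.90, 6.89-fold higher, and the iron-chelator carrier Lcn2 at -0.60 and 1.42, 4.07-fold higher. Saa1 and Saa2, adjacent serum amyloid genes, differed in direction, from 0.90 to 2.38 and from 2.31 to 1.43.

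Further lists with phagocyte genes went in both directions. Of 13 measured prostaglandin and leukotriene genes 2 were higher and 1 lower (median 0.37). These shares, 15.4% and 7.69%, are near the 12.7% and 6.64% of all genes. Alox5ap, needed for leukotriene synthesis, was at 1.45 and 3.73, 4.86-fold higher, and the lipoxygenase gene Alox12 was at -0.27 and -1.37. Of 10 measured interleukin-1 family genes 2 were higher and 1 lower (median 0.23). Il1r2, a decoy receptor for interleukin-1, was at -3.18 and -0.31, 7.32-fold higher, and Il1rl1, the receptor of interleukin-33, was at 2.60 and 1.57. Ncf4, a cytosolic subunit of the phagocyte oxidase, was at 0.81 and 2.51, the 1 higher gene of 7 in its list. Anxa1, whose product binds formyl peptide receptors, had levels of 3.32 and 5.43 and was 4.33-fold higher, with a log2 difference of 2.58 by its second probe. Among 18 measured C-type lectin receptors of the Clec family, 6 were higher and 4 lower (median -0.32), and 9 lay in the dimmest 20% of genes. Clec4e, the receptor Mincle, was at -1.19 and 0.57, whereas Clec2i went from 1.13 to -0.22 and Clec4b1 from -0.53 to -1.82. Of 15 measured metallothionein and iron handling genes 4 were higher and 0 lower. Hp and Lcn2, counted already among the acute phase genes, are 2 of these 4, and the others are Mt2, at 7.52 and 9.46, and the ferritin heavy chain gene Fth1, at 5.67 and 6.77. Complement had 3 of 12 higher and 0 lower, and 7 of the 12 lay in the dimmest 20% of genes. C3 was at 0.14 and 1.71 by its brightest probe, while its second probe differed by 0.18. Another of the 3 is Cfd, dim in wild type at -3.39 and counted again among the adipocyte genes below. C5ar1 was above background in the labelled knockout only, at least 3.87-fold higher.

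Neutrophil markers were measured for 8 genes, and 6 of them were higher by 2-fold or more and 0 lower. Their summed scaled signal was 554 in wild type and 3226 in the labelled knockout. Much of both sums came from S100a8 (levels of 7.95 and 10.75) and S100a9 (6.68 and 9.36). Lcn2 and Mmp8, also neutrophil markers, are counted again among the acute phase genes above and the metalloproteinases below. The list was not uniform. Csf3r, the receptor for granulocyte colony-stimulating factor, was at 6.57 and 6.55 and the primary granule gene Elane at 2.20 and 2.00, while Ltf, Mmp9, Cxcr2 and Mpo were below background on both arrays. The granule peptide gene Camp had levels of -2.34 and 2.59, and both of its probes were higher, by 4.93 and 4.06 on the log2 scale. The part of these markers in the stefin, formyl peptide receptor and acute phase results was not tested.

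Genes of B cell receptor signalling were higher in 8 of 18 measured members and lower in 0 (median 0.93). At the receptor, Cd79b had levels of 1.01 and 2.23 (2.32-fold). The kinase genes Syk (1.20 and 2.78, also used by myeloid cells) and Btk (-1.27 and -0.10) were higher, whereas Lyn (-0.66 and -0.64) and the adaptor gene Blnk (2.75 and 2.85) were level. Pou2af1, a B cell co-activator, was at 3.79 and 5.02. Among the 10 measured B cell markers 5 were higher by 2-fold or more and 0 lower, and their summed signal was 19.8 and 29.5, in the same direction as the signalling list. Several genes are in both lists, and the part of the markers was not tested. With the normexp offset the count of higher signalling genes fell from 8 to 0 of 18. In the pair with DSS and LIF 0 of 15 were higher and 6 lower (median -0.74), while 29.7% of all genes in that pair were lower. Over the 3 signalling genes with 2 or more measured probes under DSS the median was -0.06, without the genes that led the list.

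Collagens and metalloproteinases had more members higher than lower, many of them dim. Of 12 measured collagens 6 were higher by 2-fold or more and 1 lower (median 1.09). Of the 12, 6 lay in the dimmest 20% of genes, and of the 2 in the brighter 50% 1 was higher and 1 lower. The fibrillar chains Col1a1 (-1.54 and 0.89) and Col3a1 (0.33 and 2.47) were 5.40-fold and 4.41-fold higher, and Col1a2, which pairs with Col1a1, was at -0.54 and 0.37. The basement membrane chain Col4a6 was 2.64-fold lower, at 2.29 and 0.89. Among matrix metalloproteinases and their inhibitors 5 of 9 were higher and 1 lower. The collagenase genes Mmp8, of neutrophils (-1.65 and 2.51), and Mmp13 (2.17 and 4.44) were 17.9-fold and 4.82-fold higher, and the membrane-bound Mmp14 (0.89 and -0.67) was 2.95-fold lower. With the normexp offset 2 of the 12 collagens and 2 of the 9 metalloproteinase and inhibitor genes were higher. ADAM and ADAMTS proteases had 2 of 16 higher (12.5%) and 1 lower (6.25%), near the 12.7% and 6.64% of all genes (median 0.05).

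Stromal and smooth muscle markers had 5 of 8 measured genes higher by 2-fold or more and 0 lower, with a summed signal of 6.95 and 26.0. Col1a1 and Col3a1, counted already among the higher collagens, are among these 5, and Col1a2 is in both lists too. Dcn, a fibroblast proteoglycan gene, was at -0.40 and 2.02, and Tagln, of smooth muscle, at 1.29 and 3.43. Lum (-0.69 and -1.01) and Acta2 (-1.13 and -0.93) did not follow, and Pdgfra, Myh11 and Des were below background on both arrays. Of 16 measured genes of adipocyte hormones and lipid storage 6 were higher and 1 lower, led by Cfd (-3.39 and -0.01) and Adipoq (-3.15 and -0.10), both dim in wild type. The fatty acid carrier Fabp4 was at 2.10 and 3.94. Adipocyte markers, all of them members of that list, summed to 6.80 and 18.3, with Plin1 below background. The part of stromal and fat cell markers in the matrix results was not tested.

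Families expressed by the epithelium went in both directions. The alpha-defensins, antimicrobial peptides of Paneth cells in the small intestine, had the highest median of all lists. All 11 measured members were higher, between 5.12 and 5.97 on the log2 scale (median 5.55). Defa3 had levels of 1.00 and 6.43 and its 3 probes differed by 5.24 to 5.66, and Defa23 had 2.21 and 7.65. Their sequences are near-identical, so 11 names may stand for fewer transcripts. Of 4 Paneth cell markers 3 were at least 2-fold higher, with a summed signal of 24.7 and 59.2, among them Lyz1 with a log2 difference of 1.00, while Ang4 differed by 0.54. Of 11 measured mucin, trefoil and goblet cell genes 4 were higher and 1 lower. Zg16 (2.76 and 4.35), Fcgbp (-1.29 and 0.25), Clca1 (-0.76 and 0.90) and Tff3 (2.98 and 4.16) were 2.27-fold to 3.15-fold higher, and the mucus chaperone gene Agr2 was at 5.03 and 4.66. The Reg family of antimicrobial lectins had 0 of 7 higher and 1 lower, with Reg3b at 6.67 and 7.22 and Reg3g at 3.26 and 4.07.

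Some genes of surface colonocytes were lower, although their lists were mixed. Of 15 measured carbonic anhydrases and aquaporins 2 were higher and 1 lower (13.3% and 6.67%). In that list 11 differences were positive, with a median of 0.31 and a highest difference of 3.75. Of 14 ion transporters 1 was higher and 2 were lower (7.14% and 14.3%), with a median of -0.07. Over all genes 12.7% were higher and 6.64% lower. The water channel gene Aqp8 had levels of 0.24 and -1.53, 3.41-fold lower, and the chloride exchanger gene Slc26a3 had 0.70 and -1.06, 3.39-fold lower. Among 23 measured keratins 3 were higher and 1 lower (median 0.38). The lower one was Krt20, of differentiated epithelium, at 1.47 and 0.07, and Krt4 was at -0.87 and 0.63. Lypd8, whose product keeps flagellated bacteria from the epithelium, was 3.68-fold lower, at 2.39 and 0.51. The gasdermin gene Gsdmc3 had its brightest probe 14.2-fold lower, at 2.14 and -1.70, but its second probe differed by -0.11, and Gsdmc was 2.58-fold lower. Of 13 measured enteroendocrine genes 4 were higher and 3 lower (median -0.01). The proglucagon gene Gcg was 6.59-fold lower, at 1.21 and -1.51, while Tph1, an enzyme of serotonin synthesis, was at -1.16 and 0.71 and the granule gene Chga at -2.28 and -0.42. Over the 11 epithelial markers 1 was at least 2-fold lower and 0 higher, with 8 of 11 differences negative and a median of -0.43. Their summed signals, carried by the brightest probes, were 176 and 184. The part of epithelial cells in these results was not tested.

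Among genes of the 20S proteasome the alpha subunits had a lower median than the constitutive beta subunits on these 2 arrays. Its 7 alpha subunits, which form the outer rings and the gate, were all lower, 5 of them by at least 2-fold (median -1.04), the lowest among 329 families of genes sharing a symbol stem and having 5 or more measured members. Psma1 had levels of 4.07 and 2.38 (3.22-fold lower), Psma4 of 2.61 and 0.96 (3.13-fold), Psma5 of 6.47 and 5.09 (2.60-fold), Psma2 of 5.25 and 4.21 (2.06-fold) and Psma3 of 5.80 and 4.79. Psma6 and Psma7 were lower by less, with differences of -0.76 and -0.21. Of the 7 constitutive beta subunits of the inner rings 0 were past 2-fold (median -0.40, range -0.84 to 0.94). The immunoproteasome beta subunits Psmb8, Psmb9 and Psmb10, given above and not among these 7, differed by -1.13, -0.99 and -0.93. The cap subunits lay near 0, with medians of -0.14 for 6 ATPases and -0.10 for 12 others, except Psmd14, the cap's deubiquitinase, at 0.83 and -0.65. Each alpha subunit has 1 measured probe, and the difference between the rings was not tested.

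The chaperonin that folds actin and tubulin was lower by less, with 5 of 6 measured subunits negative, 0 past 2-fold and a median of -0.64. A further subunit gene, Cct4, was above background in wild type only, at least 2.47-fold lower. Hspe1, the mitochondrial co-chaperonin gene, was at 8.54 and 7.08, with all 3 probes of the same sign, while its partner Hspd1 was level at 5.86 and 5.79. Cholesterol synthesis had 3 of 15 measured genes at least 2-fold lower and 0 higher, with all 15 differences negative and a median of -0.45. Msmo1, a sterol demethylation enzyme, was at 3.70 and 2.50, 2.30-fold lower, and the mevalonate kinase gene Mvk was at 2.25 and 1.22, 2.05-fold lower. Hmgcs1, an early enzyme of the pathway, was level at 4.18 and 4.17. Among p53 targets 3 of 16 were higher (18.8%) and 1 lower (6.25%), and among hypoxia targets 2 of 15 were higher (13.3%) and 0 lower. Over all genes 12.7% were higher and 6.64% lower. The higher genes of these lists include Cdkn1a, the cyclin-dependent kinase inhibitor p21 (-3.64 and -1.51, dim). Ddit4, an inhibitor of mTORC1, is another, at 2.97 and 5.04, 4.19-fold higher.

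Large housekeeping families had medians near 0. Cytosolic ribosomal proteins had 84 measured members with 0 higher, 1 lower and a median of -0.05. The mitochondrial ribosomal proteins had 1 of 65 higher and 6 lower (median -0.20), and complex I of the respiratory chain had 0 of 34 higher and 3 lower (median -0.23). Translation initiation factors had 2 of 48 higher and 1 lower. Splicing factors had 0 of 28 higher and 4 lower, among them Srsf3, at 4.88 and 2.82 and 4.17-fold lower, and Snrpd1. Histones had 0 of 37 higher and 7 lower, with H2az1 at 6.78 and 5.38 by 2 probes of the same sign. The shares of lower genes in the splicing factor and histone lists (14.3% and 18.9%) compare with 6.64% over all genes.

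**Figure D3:**
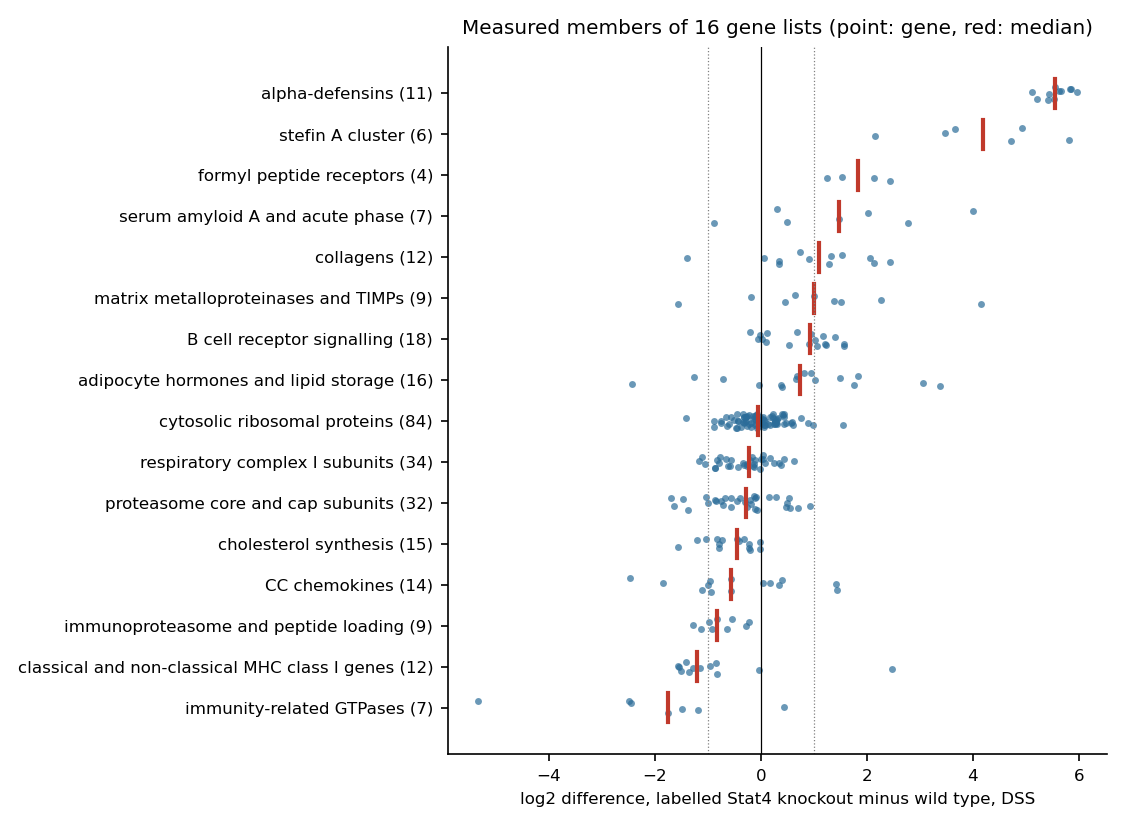
Log2 difference (labelled knockout minus wild type, DSS) of the measured members of 16 lists, with 1 point for each gene, the number of measured genes in parentheses, the list median in red and dotted lines at 2-fold. Medians run from 5.55 for alpha-defensins to -1.75 for immunity-related GTPases, and the 84 ribosomal protein genes lie around -0.05.

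Families with extreme medians differed in brightness. By symbol stem the highest medians after the alpha-defensins (Defa) were those of Rhox (1.56, 7 of 10 higher), Mmp (1.38), Defb (1.18, 5 of 10 higher), Col (1.09) and the stem G (1.09), which joins unrelated genes. Rhox genes are homeobox genes of the germ line and placenta, and 3 of the 10 measured lay in the dimmest 20% of genes and 5 in the brightest 20%. Among the beta-defensins, peptides of surface epithelia, 4 of 10 lay in the dimmest 20%. Olfactory and vomeronasal receptors had 39 of 142 higher and 14 lower, with 68 in the dimmest 20%, and over the 34 in the brighter 50% of genes the median was -0.18 against 0.42 over all 142. Cytochromes P450 of families 2, 3 and 4 had 11 of 26 higher and 1 lower, with 12 in the dimmest 20% and 0 of the 4 in the brighter 50% higher. The lowest stems were Psma (-1.04), Txndc (-0.88), Ccr (-0.86), Klk (-0.79, with 5 of 16 lower), Dph (-0.72) and Eef (-0.66, with 8 of 9 negative).

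Probes of the same gene often disagreed. Of the 1833 genes with 2 or more measured probes 1057 (57.7%) had all probes of the same sign, and across these genes the differences of the brightest and second brightest probe correlated at a Pearson r of 0.38 and a Spearman rho of 0.33. Genes and probes are not independent replicates in these values, and both probes share the arrays. Where the brightest probe was at least 2-fold higher (160 genes), the other probes had the same sign in 65.6% and the second probe was at least 2-fold higher in 21.3%. Where it was at least 2-fold lower (139 genes), the shares were 75.5% and 36.0%. The other 8723 measured genes have 1 probe, which gives no such check, and 89 genes past 2-fold were not counted because their probes disagreed. Genes with every one of 2 or more probes past 2-fold numbered 32 higher (1.75%) and 47 lower (2.56%).

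**Figure D4:**
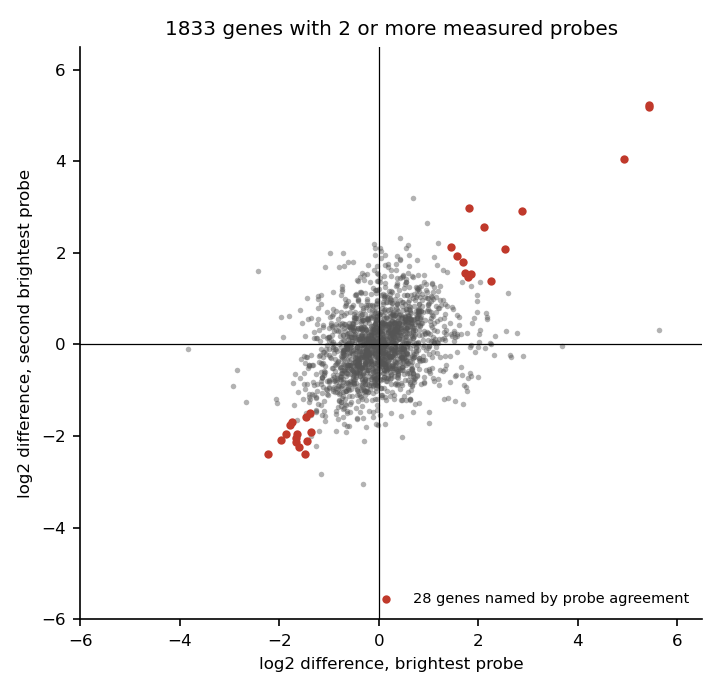
Log2 difference of the second brightest probe against that of the brightest probe for 1833 genes with 2 or more measured probes, with the 28 genes named by probe agreement in red. The red points lie in the upper right and lower left, and many other genes with a large difference by 1 probe have a second probe near 0.

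Ranked by the weakest of their probes, the highest genes with agreeing probes included Defa3, Defa23, Camp, Itln1, Anxa1, Irak2, Crispld2, Espn, Dab1, Rasgrf2, F13a1, Mapt and Dnmbp. Itln1, an intelectin that binds microbial sugars, had levels of 0.78 and 3.66 and its 2 probes differed by 2.89 and 2.92. Irak2, a kinase of Toll-like and interleukin-1 receptor signalling, was at 5.46 and 7.99, with log2 differences of 2.53 and 2.10 by its probes. Crispld2, a secreted protein that binds lipopolysaccharide, was at -0.86 and 0.96. F13a1, the A subunit of coagulation factor XIII and a gene of tissue macrophages, was at -2.01 and -0.16. Several of the others are known mainly from neurons or sensory cells. Mapt, which encodes the microtubule protein tau, was bright on both arrays, with a level of 7.31 in wild type and a 3.46-fold higher one in the labelled knockout, and Dnmbp, a scaffold of membrane and actin dynamics, was at 3.73 and 5.18.

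The 14 lowest genes by the same rank were Coq10b, Rheb, Cxcr6, Yipf6, Ube2w, Immp1l, Cks1b, Rabggtb, Ces2c, Nkg7, Sft2d1, Snrpd1, Mgat4c and Calm2. Coq10b, which serves coenzyme Q in mitochondria, had levels of 2.41 and 0.19, with both probes lower, by log2 differences of -2.23 and -2.39. Rheb, the small GTPase that activates mTORC1, was at 4.24 and 2.28, 3.91-fold lower, with log2 differences of -1.97 and -2.08 by its probes. Cks1b, a partner of cyclin-dependent kinases, was at 5.60 and 3.96, and Calm2, a calmodulin gene, at 6.53 and 5.16. Genes of membrane traffic were among them, Yipf6 (3.41 and 1.64), Sft2d1 (1.53 and 0.07) and Rabggtb, the enzyme subunit that attaches lipids to Rab proteins (3.06-fold lower). Ces2c, a carboxylesterase of the gut, was lower by 3 probes, with log2 differences from -1.57 to -1.74. Nkg7, of cytotoxic granules, was at 4.21 and 2.72.

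The genotypes were also arrayed after DSS and LIF, and that pair shares no array with the DSS pair. The wild-type array with LIF stands apart, correlating at 0.800 to 0.818 with the other 3. The labelled knockout arrays with and without LIF correlated at 0.980 over 12674 probes. The 75th percentile of signal was 23.8 on the wild-type LIF array and 43.3 on the labelled knockout LIF array. On the DSS arrays it was 122.9 (wild type) and 45.3 (labelled knockout). On the wild-type LIF array 37.6% of probes were well above background. The dimmest such value was -1.49 there and -2.04 on the labelled knockout LIF array. The part of signal strength in the LIF results was not tested. Under LIF 1070 of 8406 measured genes (12.7%) were higher by 2-fold or more and 2495 (29.7%) lower. Of the 701 genes lower under DSS 546 were measured under LIF, where 256 (46.9%) were lower and 73 (13.4%) higher. Of the 1340 genes higher under DSS 729 were measured, with 248 (34.0%) higher and 156 (21.4%) lower. Over all genes measured in both pairs 13.2% were higher and 29.5% lower under LIF, with a median difference of -0.44. The 14 named lower genes were lower again in 7 and higher in 0, and of the named higher genes 10 were measured, with 3 higher and 4 lower.

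By family, the median of the GTPases was -2.64 under LIF over 6 measured genes, 4 of them lower by 2-fold or more and 0 higher. Iigp1 is not among the 6. Its probe measured under DSS was not well above background on the wild-type array with LIF, at -1.38, and stood at 0.51 on the labelled knockout array, opposite to DSS. Its second probe was above background under LIF in wild type only, at -0.38. The OAS, IFIT, Mx and viral-sensor list, near 0 under DSS, had a median of -0.94 under LIF. In it 1 of 14 measured genes was higher by 2-fold or more and 7 were lower. The stefins (2.39) and formyl peptide receptors (1.59) had positive medians in both pairs. Class I genes had a median of -0.48 with 4 of 12 higher and 3 lower, near the -0.44 of all genes measured in both pairs. H2-T23 (1.39 in wild type and 2.83 in the labelled knockout), H2-Q6 (0.43 and 1.68) and H2-Q2 (0.99 and 2.18) were higher under LIF, opposite to DSS alone, and so was the proteasome gene Psma4 (-0.67 and 1.53). Psma6 stood at -0.49 and 1.54 on the same arrays, whereas Psma1, Psma2, Psma3, Psma5 and Psma7 were lower in the labelled knockout there too. Complex I had a median of -0.88, against -0.44 over all genes measured in both pairs. The alpha-defensins turned, with all 12 measured lower and a median of -2.52. Defa23 had levels of 2.21 (wild type) and 7.65 (labelled knockout) after DSS alone and of 9.77 and 7.22 in the same order after LIF was added, so the wild-type DSS array is the low one of 4. Itln1 had the same order of arrays, at 0.78, 3.66, 5.09 and 2.61. Gm4951 instead separated by label, at 3.35 and 3.19 on the wild-type arrays and -1.99 and -1.71 on the labelled knockout arrays.

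**Figure D5:**
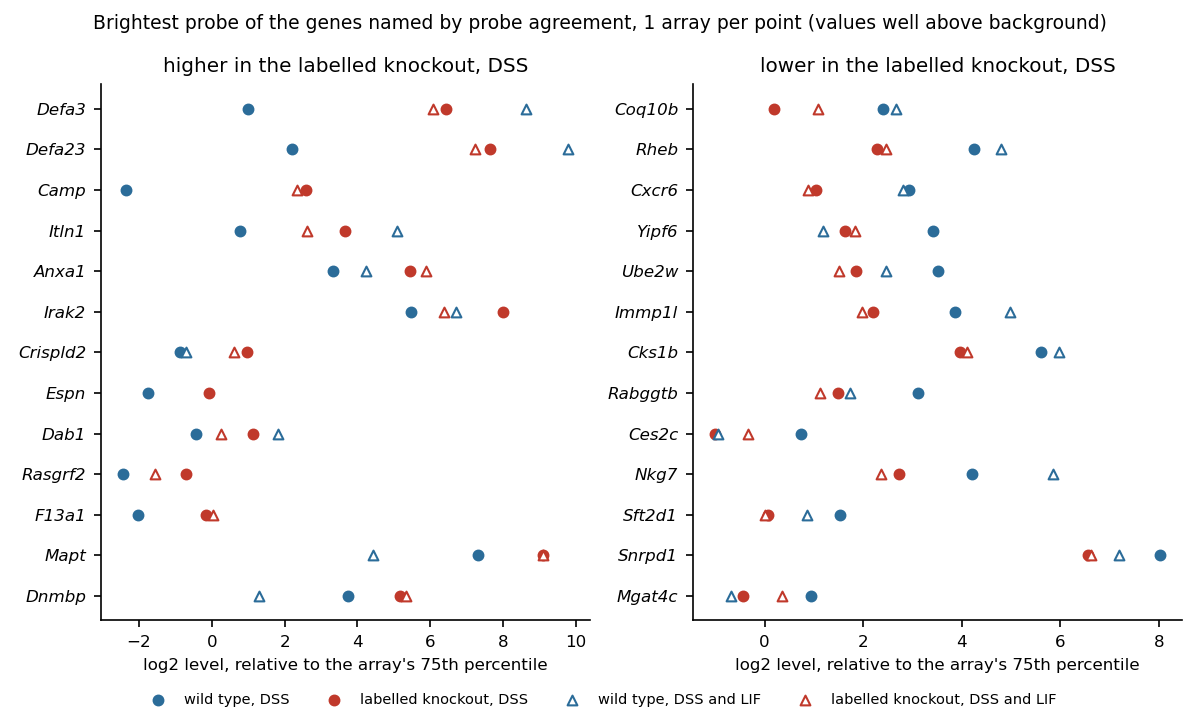
Log2 level of the brightest probe of the first 13 higher and first 13 lower genes ranked by their weakest probe, on the 2 DSS arrays (filled circles) and the 2 arrays with DSS and LIF (open triangles), wild type in blue and labelled knockout in red, where well above background. The labelled knockout arrays lie close together for most genes, and the wild-type LIF array lies above them for Defa3, Defa23 and Itln1 and far below them for Mapt and Dnmbp.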

How the data were processed

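RNA of lamina propria lymphocytes was hybridised to 1-colour (Cy3) Agilent mouse arrays. The authors deposited scanner spot intensity values from Agilent Feature Extraction. Per the file headers its version is 11.0.1.1, whereas 9.1 stands in the submitters' processing notes. Background had been subtracted from the processed signal, per the file headers. A further table that the authors deposited holds floored log2 values and served as an alternative. Its normalization was not given in the sources used here.

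Each array has 43020 non-control spots, none saturated, of 39429 probes. Outlier-marked spots were left out and the log2 processed signals of a probe's spots were averaged, minus the array's 75th percentile. A probe was measured when at least 50% of its spots were well above background on both arrays. RefSeq accessions (GRCm38.p6, names only) named 27234 probes (69.1%) for 20659 genes. A gene's value is its brightest measured probe, and it was counted past 2-fold only if all its measured probes had the same sign. For a gene below background on 1 array, the bound subtracts from the bright value either the probe's own dim value or the dim array's lowest value well above background, whichever is higher. Normexp used limma 3.58.1 in R 4.3.3, and the rest pandas 2.3.3. The scripts were tested on simulated data. The number of arrays limits the precision, and with 1 array per group no p-value was computed.

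Genes named were Stat4, the 14 highest and 14 lowest by their weakest probe among genes with 2 or more measured probes each at least 2-fold (also with normexp without offset and quantile scaling), and up to 5 measured members and 2 bounds per list. Clone, locus, immunoglobulin and T cell receptor segment names were left out, and other list members were named after their values were seen. The members and lists were chosen with earlier results of these data known. Alternatives covered background correction, scaling, filters on dim probes, the gene summary, outlier spots and the deposited log2 table. Some items are not reported here.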

Additional observations from a re-analysis of the deposited data

Results flagged for a closer look

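Of the 158 genes named above with a measured difference under DSS, 126 were also measured after DSS and LIF, and 41 of these had opposite signs of the labelled knockout minus wild-type difference in the pairs. The wild-type array with LIF had the lowest signal of the 4 arrays, and the difference between the pairs was not tested. For 14 genes both differences were at least 2-fold. Among these, 7 were higher under DSS and lower under DSS and LIF. The log2 differences, DSS first, were 5.44 and -2.55 for Defa23, 5.42 and -2.55 for Defa3, 2.89 and -2.48 for Itln1, and 1.57 and -1.58 for Dab1. The goblet cell genes Clca1 (1.66 and -3.50) and Tff3 (1.18 and -2.52) and the smooth muscle gene Tagln (2.14 and -2.44) turned in the same way.

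The other 7 were lower under DSS and higher under DSS and LIF. They were the class I genes H2-T23 (-1.52 and 1.43), H2-Q6 (-1.54 and 1.26) and H2-Q2 (-1.41 and 1.19), the proteasome gene Psma4 (-1.65 and 2.20), the matrix genes Col4a6 (-1.40 and 1.30) and Mmp14 (-1.56 and 2.07), and Lypd8 (-1.88 and 1.48). Stat4, the targeted gene, had 0.80 and -0.70, neither past 2-fold.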

How the results depend on the processing

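No paired analysis was possible because each group has 1 array, and for the same reason no array could be left out. Genes at least 2-fold higher, 1340 as reported, numbered 327 with normexp and an offset of 50, 5632 with no background filter, 735 among probes well above background on all 4 arrays, 517 in the brighter 50% of genes and 32 with every one of 2 or more probes past 2-fold. Genes at least 2-fold lower, 701 as reported, numbered 1767 with no background filter, 386 in the brighter 50% and 47 with 2 or more probes. The last 2 settings and the 4-array filter test fewer genes, and the cause of the other shifts was not tested. The normexp offset moved the ribosomal protein median from -0.05 to -0.56.

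The median of the guanylate-binding proteins turned to 0.22 over all 4 arrays and to 1.56 in the brighter 50% (Gbp6 alone), and that of the Reg family to -0.049 with the normexp offset. Over genes with 2 or more probes, few per list, medians turned to -0.11 for cytochromes P450, -0.058 for B cell receptor signalling, -0.29 for oxidase, nitric oxide and arginine enzymes, -1.23 for adipocyte hormones and lipid storage, 0.29 for T cell markers and -2.44 for adipocyte markers (Retn alone). Dapp1 turned to -0.78 with no background filter. The medians of GTPases (-1.05 to -2.49) and class I genes (-0.85 to -1.33) stayed negative, and that of stefins (3.43 to 4.40) positive, under every alternative that gave them a value. Choosing the brightest probe over 4 arrays was added after seeing the data and gave 1338 and 699 genes. The labelled knockout array's detection floor limits what can be seen of lower dim genes.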
